A study of Mus musculus with 2 samples.

Results

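The interleukin-1 (IL-1) family of cytokines, its receptors and the epithelial alarmins were followed as 9 genes of 32285 in single-cell RNA counts from chemically induced mouse skin tumours. The 9 were chosen by name: the agonists Il1a and Il1b, the receptor antagonist Il1rn, the signalling receptor Il1r1, the decoy receptor Il1r2, and the further cytokines Il18, Il33, Tslp and Il24. All 9 were present once in the matrices and all 9 had UMIs (unique molecular identifiers, 1 per captured transcript) in both libraries. Cells of dorsal skin tumours, taken when the mice were 5 months old, were sequenced with a droplet 3' kit. The Ctrl-D library came from Eed flox/flox mice given ethanol and DMBA. The Eed iKO-D library came from K14CrERT2;Eed flox/flox mice given hydroxyl-tamoxifen on 4 days from postnatal day 50, and DMBA. DMBA is a carcinogen painted on the skin of both groups once a week for up to 20 weeks, and both groups carried the floxed Eed alleles. The keratin 14 promoter that drives the inducible Cre is active in basal keratinocytes, so immune cells and fibroblasts were not its target. Genotype and tamoxifen differed together and cannot be told apart. The number of animals and tumours in each library was not given in the labels, and with 1 library per group differences between libraries carry no estimate of replicate spread and were not tested.

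IL-1α and IL-1β bind the same receptor, IL-1R1, which recruits an accessory chain and signals through MyD88 and IRAK kinases to NF-kB. IL-1Ra, the product of Il1rn, occupies that receptor without signalling, and IL-1R2 binds the ligands but lacks the signalling domain. IL-1β and IL-18 are made as precursors that inflammasome caspases cut, whereas IL-1α and IL-33 are held in cells and released on damage. In skin, keratinocytes are a known source of IL-1α, IL-33, TSLP (a cytokine that acts on dendritic and type 2 immune cells) and IL-24 (a member of the IL-20 family that acts back on epithelium).

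There were 8039 barcodes and 120500892 UMIs for Ctrl-D, and 22259 barcodes and 289511009 UMIs for Eed iKO-D. Filtering left 7390 and 21484 cells (median depth 13036.5 and 3191 UMIs), and 49 barcodes occurred in both libraries. The labels call the cells epidermal cancer cells, but clusters with neutrophil, macrophage, fibroblast and T cell markers were present in both libraries. In Eed iKO-D 59.9% of kept cells lay in clusters without a name, against 2.37% in Ctrl-D, and doublets could not be removed from that library. The compared classes held 5428 and 2917 epithelial-like cells (Ctrl-D first, here and below), 138 and 1134 neutrophil-like, 74 and 948 macrophage- or monocyte-like, 252 and 2430 fibroblast-like and 471 and 153 T cell-like cells. Eed itself stood at 53.2 and 46.9 CPM (a gene's UMIs per 1000000 UMIs of the class) in epithelial-like cells. The 3' reads need not cover the deleted exons, so this level is a weak check of the deletion. Intervals in parentheses are exact 95% intervals and cover counting error only. Free RNA, released by broken cells and caught in every droplet, was estimated per class from genes that the class should lack, and a level at or below that estimate is read as background.

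Most of the 9 genes had the same leading cell class in both libraries. Il1b and Il1r2 stood highest in neutrophil-like cells, Il1rn in neutrophil-like and next in macrophage- or monocyte-like cells, Il1r1 and Il33 in fibroblast-like cells, and Tslp and Il24 in epithelial-like cells among the 5 compared classes. Il1a was highest in the myeloid classes per UMI and next in epithelial-like cells. Il18 was highest in neutrophil-like cells of Ctrl-D and in macrophage- or monocyte-like cells of Eed iKO-D, and the 2 myeloid classes of Eed iKO-D had Il1a levels whose intervals overlapped.

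**Figure D1:**
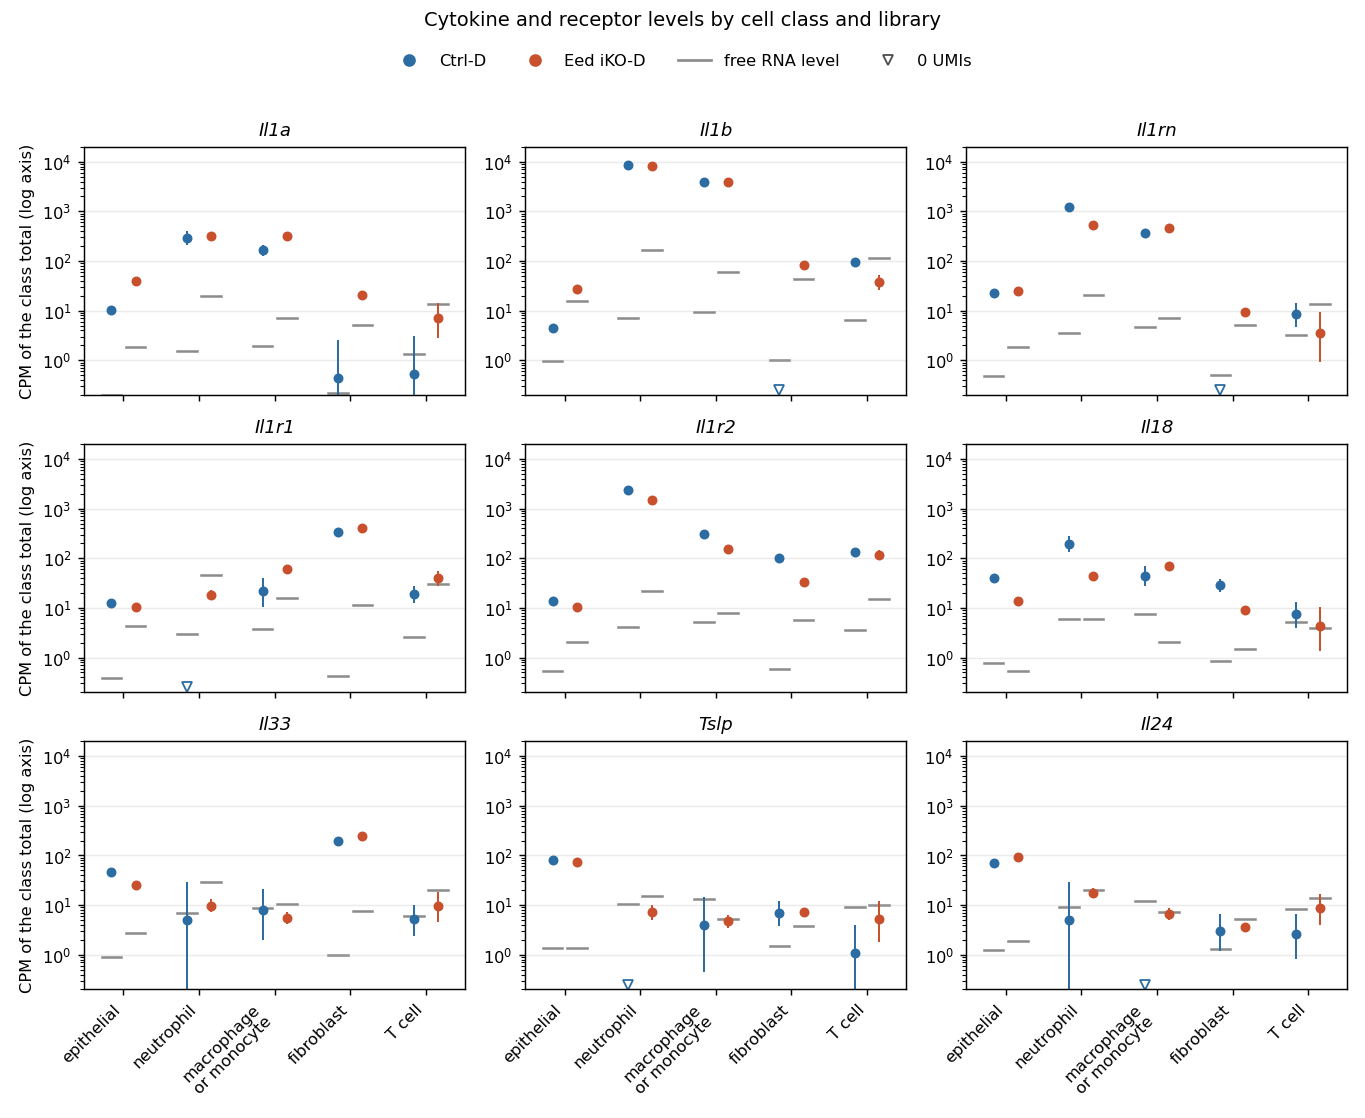
CPM of the class total (log axis) of the 9 genes in 5 cell classes, Ctrl-D in blue and Eed iKO-D in red, with exact 95% Poisson intervals; grey lines mark the free RNA level and open triangles mark 0 UMIs. Il1b stood at 8658 and 8399 CPM in neutrophil-like cells, and Tslp at 80.4 and 73.8 CPM in epithelial-like cells, far above the grey lines.

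The share of each gene's UMIs that came from each class differed between libraries, as did the cell makeup. In Ctrl-D, epithelial-like cells held 86.1% of Il1a UMIs, 81.2% of Il1rn, 90.2% of Il18, 89.0% of Il33, 99.4% of Tslp and 99.2% of Il24. In Eed iKO-D they held 34.2% of Il1a, 21.1% of Il1rn, 40.5% of Il18 and 14.5% of Il33, but still 85.6% of Tslp and 77.4% of Il24. Fibroblast-like cells held 77.4% of Il1r1 and 73.2% of Il33 UMIs in Eed iKO-D, against 34.2% and 8.33% in Ctrl-D. Neutrophil- and macrophage-like cells held 41.2% and 43.2% of Il1b in Eed iKO-D and 30.5% and 36.3% in Ctrl-D.

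**Figure D2:**
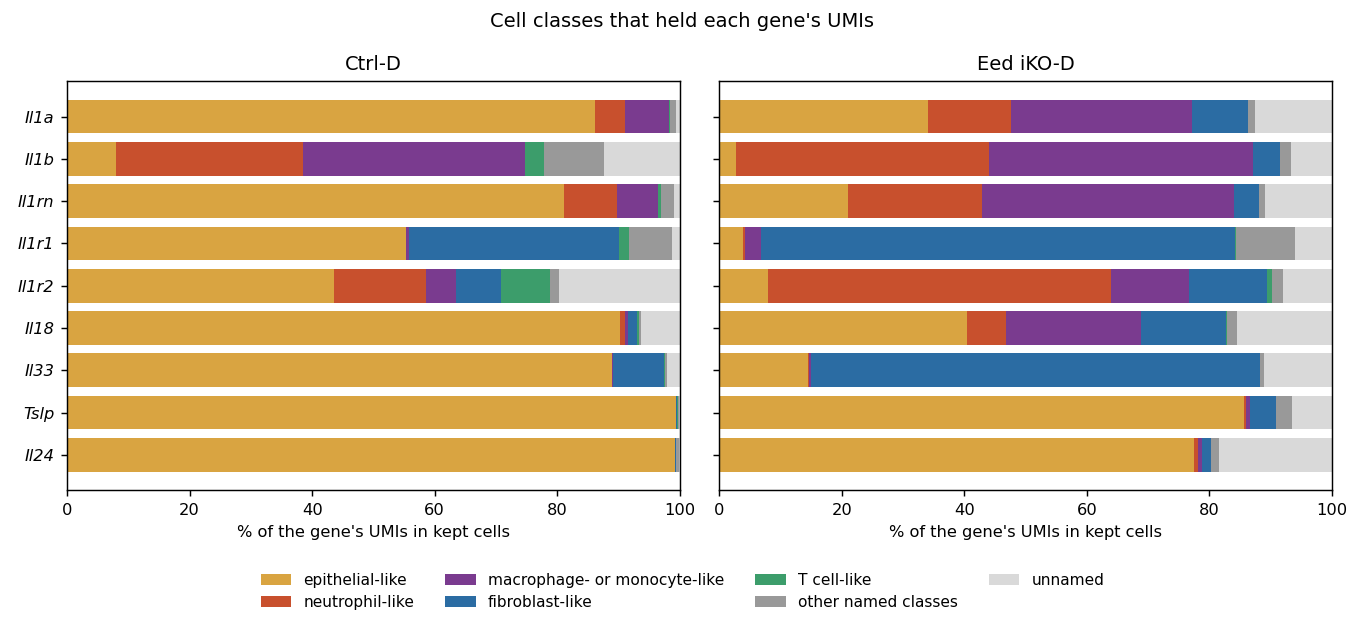
Percent of each gene's UMIs in kept cells (x axis) that lay in each cell class, for Ctrl-D on the left and Eed iKO-D on the right. Epithelial-like cells held 89.0% of Il33 UMIs in Ctrl-D against 14.5% in Eed iKO-D, where fibroblast-like cells held 73.2%.

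Over all named cells the library-wide level of Il1b was 42.8 CPM in Ctrl-D against 514 in Eed iKO-D, a ratio of 12.0. Giving every class its Ctrl-D level at the Eed iKO-D cell makeup produced 496 CPM, a ratio of 11.6. Il33 behaved alike, with a ratio of 1.91 as measured and 1.81 from makeup. Il1r1 had ratios of 7.11 and 5.88, and Il1rn of 2.44 and 2.78. For 3 genes the measured ratio lay further from the makeup ratio. Il1a had a ratio of 5.59 as measured and 2.33 from makeup, Il1r2 of 2.98 against 5.47, and Il18 of 0.432 against 1.06. This reckoning was chosen after the data were seen, takes the levels of small Ctrl-D classes (138 neutrophil-like and 74 macrophage- or monocyte-like cells), which move under other classings, at face value and rests on UMI shares that dissociation and dead cell removal can set.

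**Figure D3:**
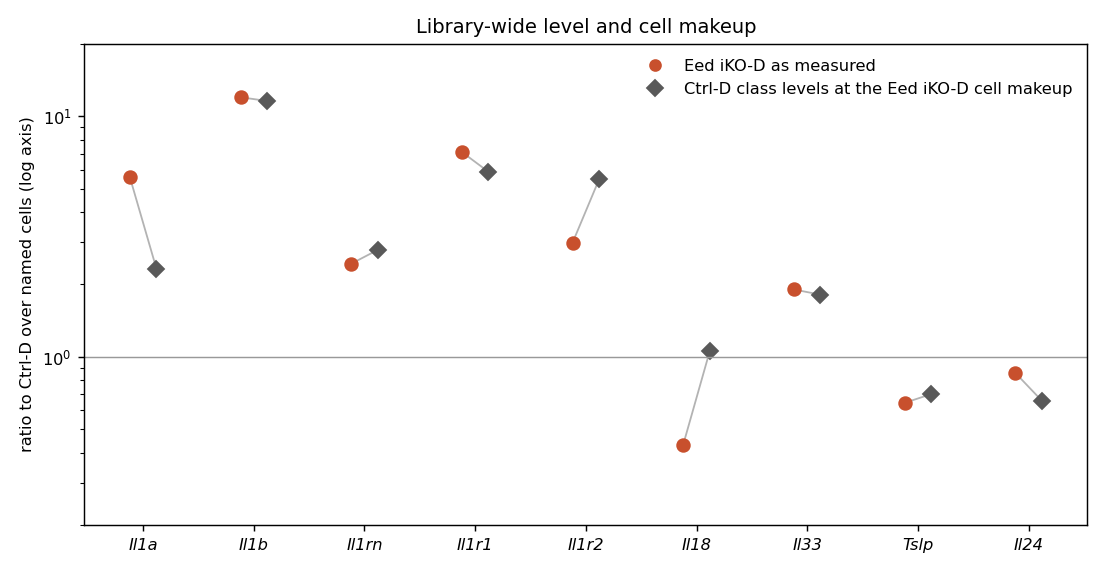
Ratio to Ctrl-D (log axis) of each gene's level over all named cells, as measured in Eed iKO-D (circles) and with Ctrl-D class levels at the Eed iKO-D cell makeup (diamonds). The 2 marks nearly coincide for Il1b (12.0 and 11.6) and stand apart for Il1a, Il1r2 and Il18.

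Il1a encodes IL-1α, the agonist that keratinocytes store. In epithelial-like cells Il1a stood at 10.2 CPM (9.57 to 10.8) in Ctrl-D against 39.7 (38.7 to 40.8) in Eed iKO-D, a ratio of 3.90 (3.65 to 4.18). Both levels were far above the free RNA levels of 0.203 and 1.87 CPM. After thinning every cell to 1500 UMIs, 0.827% of 5321 and 4.78% of 2906 epithelial-like cells had an Il1a UMI, against 6.23% and 38.3% before thinning. In fibroblast-like cells the shares after thinning were 0 of 244 cells (exact 95% upper bound 1.5%) and 2.19% of 2423 cells. Their median depths were 8037 and 24785 UMIs, against 15646.5 and 37441 in epithelial-like cells.

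The epithelial-like class consisted of 7 clusters, and the 5 with at least 50 cells in each library are called shared. Cluster 0 was led by Chil4 and Stfa3, cluster 1 by the cornified envelope genes Lce3d and Sprr2h, cluster 2 by the follicle stem cell genes Krt15 and Lhx2, cluster 18 by Tslp and Sostdc1, and cluster 20 by Prl8a9 and Hmga2. Cluster 4, led by Cck, was in Ctrl-D alone (626 cells), and cluster 11, led by the cornifying genes Lor and Lce1m, held 469 and 17 cells. A further cluster of 291 cells in Eed iKO-D, cluster 9, scored highest for keratinocyte markers but was kept out of the class because Ltf, a neutrophil marker in the fixed list, was among its leading genes. It held 1.35% of kept Eed iKO-D cells and none in Ctrl-D.

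Il1a was higher in Eed iKO-D in all 5 shared clusters, with ratios from 1.74 (1.397 to 2.19) in cluster 20 to 6.21 (2.26 to 15.9) in cluster 2. The highest Il1a level of a shared cluster was 47.9 CPM in cluster 20 of Eed iKO-D. In Ctrl-D it was highest in cluster 4, at 41.3 CPM (37.4 to 45.5), which held 34.8% of that library's Il1a UMIs. Cluster 9, outside the class, had 69.5 CPM (64.3 to 74.9). The keratinocyte clusters of Ctrl-D thus spanned 0.657 to 41.3 CPM, a range wider than the ratio between libraries.

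**Figure D4:**
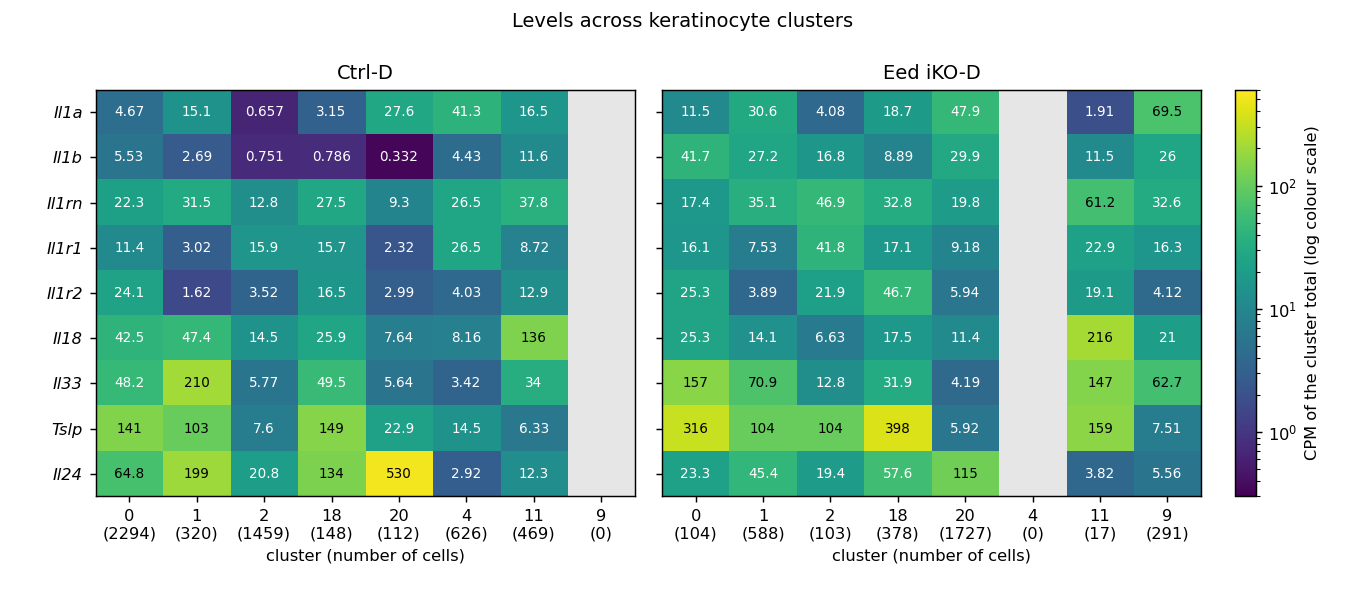
CPM of the cluster total (numbers and log colour scale) of the 9 genes in 7 epithelial-like clusters and in cluster 9, which was kept out of the class, for each library; the number of cells stands under each cluster and grey columns had none. Il24 reached 529.6 CPM in cluster 20 of Ctrl-D and Tslp 398 CPM in cluster 18 of Eed iKO-D.

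Myeloid Il1a was higher per UMI than keratinocyte Il1a. Neutrophil-like cells had 293 CPM (222 to 379) in Ctrl-D against 323 (309 to 337) in Eed iKO-D, intervals that overlapped. Macrophage- or monocyte-like cells had 166 (132 to 205) and 325 (316 to 335) CPM, a ratio of 1.96 (1.58 to 2.46), from 85 and 4487 UMIs. That ratio was under 1.5 in 6 of 14 alternative settings, and the log2 ratio ran from 0.11 (mean of per-cell CPM) to 6.51 (each cell classed by its own markers).

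Il1a was also counted in fibroblast-like cells of Eed iKO-D. There were 1361 Il1a UMIs at 20.8 CPM (19.7 to 21.9) against 1 UMI in Ctrl-D, a ratio of 47.6 (8.53 to 1881), with a free RNA level of 5.11 CPM. Cluster 7, led by Crabp1, Grem1 and Tnn, had 36.4 CPM (34.3 to 38.5), and cluster 5, led by Clec3b and Pi16, had 5.39 (4.63 to 6.25), next to its free RNA level of 4.29. The Il1a level of the class was 6.43% of that in neutrophil-like cells. The neutrophil markers Retnlg, Csf3r, Acod1 and G0s2 stood at 0.175% to 0.843% of theirs. The macrophage markers C1qa, C1qb, Lyz2 and Mrc1 stood at 0.433% to 0.716% of their macrophage level. The keratinocyte gene Krt5 stood at 9.61% of its library-wide level. The part of free RNA, keratinocyte RNA and remaining doublets in the Il1a level was not tested. The Ctrl-D fibroblast-like class had 2291483 UMIs in all against 65520463, and cluster 7 only 39 cells there.

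The sequence just before the start of Il1a is shown with those of Il1b and Il1rn, as the agonists and the antagonist of the same receptor. Tslp was left out here, and no promoter was given for Il24. Promoters (250 bases before to 50 after a start) were taken from RefSeq (GRCm38.p6) for the other 7 of the 9 genes, with 11 start sites. They were searched on both strands for the AP-1 motif TGANTCA and for an NF-kB consensus, and no match of one overlapped a match of the other. Capitals mark an AP-1 match, and the 250 bases before each start are printed 5′ to 3′ on the gene's strand.
Il1a, chr2:129309973-129310222, minus strand: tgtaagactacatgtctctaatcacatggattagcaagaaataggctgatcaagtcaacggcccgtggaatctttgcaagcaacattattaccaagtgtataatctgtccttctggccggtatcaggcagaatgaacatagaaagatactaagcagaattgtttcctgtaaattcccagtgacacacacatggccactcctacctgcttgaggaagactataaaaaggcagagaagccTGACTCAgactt
Il1b, chr2:129371140-129371389, minus strand: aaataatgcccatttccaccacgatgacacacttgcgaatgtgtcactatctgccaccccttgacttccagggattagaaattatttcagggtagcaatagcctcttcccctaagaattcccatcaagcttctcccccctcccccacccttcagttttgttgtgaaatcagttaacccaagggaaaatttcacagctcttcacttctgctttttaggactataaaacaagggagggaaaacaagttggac
Il1rn, first of 3 starts, chr2:24336610-24336859, plus strand: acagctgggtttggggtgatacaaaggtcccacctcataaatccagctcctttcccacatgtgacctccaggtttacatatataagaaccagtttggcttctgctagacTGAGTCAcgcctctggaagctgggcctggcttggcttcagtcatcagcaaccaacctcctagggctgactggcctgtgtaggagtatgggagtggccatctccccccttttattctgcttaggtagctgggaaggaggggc
The Il1a match begins 12 bases before the start and the Il1rn match 141 bases before it, and no other of the 11 promoters held one. Over all 32851 promoters of the same length in that table, 7.81% held an AP-1 match and 4.51% an NF-kB match. The only NF-kB match among the 11 lay 232 bases before the second start of Il1r1. These matches are letters in a window and no binding was measured.

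Il1b, the secreted agonist of myeloid cells, had the highest level of the 9 genes. Neutrophil-like cells stood at 8658 CPM (8253 to 9078) in Ctrl-D against 8399 (8327 to 8471) in Eed iKO-D, a ratio of 0.970 (0.925 to 1.02). Macrophage- or monocyte-like cells stood at 3972 (3802 to 4149) and 3998 (3965 to 4032) CPM, a ratio of 1.01 (0.963 to 1.05). The intervals of both ratios held 1 and excluded a difference of 1.5 times by counting error alone. With each cell classed by its own markers the log2 ratios were 1.17 in neutrophil-like and 5.44 in macrophage- or monocyte-like cells. After thinning to 1500 UMIs, 33 of 33 and 92.0% of 1133 neutrophil-like cells had an Il1b UMI. The depths differed, with medians of 1273 and 4915.5 UMIs. Mast cell-like cells, too few in Ctrl-D to compare (18 and 66 cells), had 10430 and 2613 CPM. An unnamed cluster led by the Langerhans cell gene Cd207 and by MHC class II genes, cluster 16 (55 and 14 cells), had 1262 (1166 to 1364) and 1757 (1586 to 1942) CPM.

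In epithelial-like and fibroblast-like cells Il1b was low beside the myeloid classes. Epithelial-like cells had 4.47 CPM (4.07 to 4.91) and 27.3 (26.4 to 28.2), a ratio of 6.11 (5.53 to 6.75), with free RNA levels of 0.964 and 15.8 CPM. Within the shared clusters of Eed iKO-D, clusters 0 and 20 lay above their free RNA levels, at 41.7 against 19.5 and 29.9 against 14.5 CPM. Cluster 1, at 27.2 CPM (25.3 to 29.3), could not be told from its free RNA level of 26.0, and clusters 2 and 18 lay below theirs. Fibroblast-like cells had 0 UMIs in Ctrl-D against 5527 in Eed iKO-D, where 84.4 CPM (82.2 to 86.6) stood above a free RNA level of 43.2. The Eed iKO-D level was at least 64.4-fold higher than the floor of 3 UMIs over the Ctrl-D class, and the exact lower limit of the ratio was 52.4. It was 1.00% of the level in neutrophil-like cells and 2.11% of that in macrophage-like cells, beside 0.175% to 0.843% for neutrophil markers and 0.433% to 0.716% for macrophage markers. The part of free RNA and of remaining doublets in these levels was not tested.

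T cell-like cells had the opposite direction for Il1b, with 94.2 CPM (80.8 to 109) in Ctrl-D against 37.5 (27.2 to 50.5) in Eed iKO-D. The Eed iKO-D value lay below the free RNA level of 114 CPM. The 177 Ctrl-D UMIs lay in 11 of 471 cells. In those Ctrl-D T cell-like cells the macrophage markers C1qa, C1qb, Mrc1 and Lyz2 stood at 4.53%, 4.57%, 1.68% and 0.8797% of their macrophage level, beside 2.37% for Il1b, and the part of macrophage RNA was not tested. The direction turned under 3 of 14 alternatives.

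Il1rn, the antagonist, was higher in neutrophil-like cells of Ctrl-D than of Eed iKO-D. It stood at 1202 CPM (1054 to 1364) from 238 UMIs and at 529 (511 to 547), a ratio of 0.440 (0.386 to 0.504). Macrophage- or monocyte-like cells had 363 (312 to 419) and 454 (443 to 466) CPM, a ratio of 1.253 (1.08 to 1.46). In epithelial-like cells Il1rn was nearly level, at 22.7 (21.7 to 23.6) and 24.7 (23.9 to 25.6) CPM, with ratios from 0.780 in cluster 0 to 3.66 (2.86 to 4.65) in cluster 2. Keratinocyte Il1rn was highest in cornifying cluster 11, at 37.8 and 61.2 CPM. Fibroblast-like cells had 0 UMIs in Ctrl-D against 9.57 CPM (8.84 to 10.4) in Eed iKO-D, with a free RNA level of 5.15. When each cell was classed by its own marker UMIs, the log2 ratio in neutrophil-like cells turned from -1.19 to 0.20, so the difference depended on which cells were counted as neutrophils.

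Il1r1, the signalling receptor, was highest in fibroblast-like cells. It stood at 339 CPM (316 to 364) in Ctrl-D against 404 (400 to 409) in Eed iKO-D, a ratio of 1.19 (1.11 to 1.28). After thinning to 1500 UMIs, 34.4% of 244 and 36.8% of 2423 fibroblast-like cells had a UMI, against 1.88% of 5321 and 1.79% of 2906 epithelial-like cells. Cluster 5 had 402 and 512 CPM, and cluster 7 had 156 and 295, a ratio of 1.90 (1.54 to 2.36) from 91 and 9603 UMIs. Pericyte- or smooth muscle-like cells (36 and 429 cells) had 196 (144 to 262) and 346 (332 to 360) CPM, and blood endothelial-like cells (19 and 487 cells) had 143 (94.4 to 209) and 126 (118 to 134). Per UMI, Il1r1 thus stood highest in stromal classes, and among the 5 compared classes Il1a and Il1b stood highest in the 2 myeloid ones. By number of UMIs this did not hold in Ctrl-D. There, epithelial-like cells had 1257 Il1r1 UMIs against 777 in fibroblast-like cells. They had 1016 Il1a UMIs against 58 in neutrophil-like and 85 in macrophage- or monocyte-like cells. Neutrophil-like cells had 0 UMIs in Ctrl-D, with a floor of 15.15 CPM (3 UMIs over the class) and an exact upper limit of 18.6, and 18.4 CPM in Eed iKO-D, under the free RNA level of 45.7.

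Macrophage- or monocyte-like cells had a low Il1r1 level in both libraries, 21.4 CPM (10.7 to 38.4) from 11 UMIs and 61.8 (57.7 to 66.1) from 853, a ratio of 2.88 (1.60 to 5.79). Both lay above the free RNA levels of 3.79 and 15.9 CPM. In epithelial-like cells Il1r1 stood at 12.6 and 10.3 CPM over the class, a ratio of 0.819, yet it was higher in Eed iKO-D in all 5 shared clusters, by 1.085 to 3.95 times. Cluster 18 had the lowest of these ratios, 1.085 (0.685 to 1.81), an interval that held 1.

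Il1r2, the decoy receptor, stood high per UMI in neutrophil-like cells and in the Cd207-led cluster. By number, epithelial-like cells of Ctrl-D held more Il1r2 UMIs (1382) than neutrophil-like cells (472). Neutrophil-like cells had 2383 CPM (2173 to 2608) in Ctrl-D against 1489 (1459 to 1519) in Eed iKO-D, a ratio of 0.625 (0.570 to 0.687). In cluster 16 it stood at 1238 (1143 to 1339) and 2136 (1947 to 2339) CPM, and its 55 Ctrl-D cells held 19.7% of that library's Il1r2 UMIs. Macrophage- or monocyte-like cells had 310 (264 to 362) and 152 (146 to 159) CPM, a ratio of 0.491 (0.417 to 0.580). T cell-like cells had 134 (118 to 152) and 119 (99.6 to 140), with overlapping intervals, and a UMI was found in 11.2% of 437 and 11.8% of 152 cells after thinning.

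Fibroblast-like cells also differed in the decoy receptor. Il1r2 stood at 100.4 CPM (87.8 to 114) in Ctrl-D against 32.7 (31.3 to 34.1) in Eed iKO-D, a ratio of 0.325 (0.284 to 0.375), and the log2 ratio ranged from -1.93 to -1.43 over 14 alternatives. The difference was seen in cluster 5, with 129 (112 to 147) and 43.4 (41.1 to 45.7) CPM, whereas cluster 7 had 17.1 (8.21 to 31.5) and 21.8 (20.2 to 23.5). Signalling and decoy receptor thus stood at 339 and 100.4 CPM in Ctrl-D fibroblast-like cells and at 404 and 32.7 in Eed iKO-D. In epithelial-like cells Il1r2 was low, at 13.9 (13.1 to 14.6) and 10.3 (9.72 to 10.8) CPM. Within shared clusters its ratios ran from 1.05 in cluster 0 to 6.23 (4.18 to 9.18) in cluster 2. When each cell was classed by its own markers, the log2 ratio turned to 0.80 in neutrophil-like and 2.44 in macrophage- or monocyte-like cells.

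Il18, whose product activates T and NK cells together with IL-12, was lower in Eed iKO-D in epithelial-like, neutrophil-like and fibroblast-like cells. In epithelial-like cells it stood at 40.9 CPM (39.7 to 42.2) and 13.7 (13.0 to 14.3), a ratio of 0.334 (0.315 to 0.353). Neutrophil-like cells had 197 (140.0 to 269) from 39 UMIs and 44.2 (39.1 to 49.7), a ratio of 0.225 (0.1601 to 0.323). Fibroblast-like cells had 28.8 (22.3 to 36.6) and 9.28 (8.56 to 10.1), a ratio of 0.322 (0.250 to 0.422). Macrophage- or monocyte-like cells stood the other way, with 44.8 (28.4 to 67.3) from 23 UMIs and 70.2 (65.8 to 74.7) CPM, a ratio of 1.57 (1.04 to 2.48). That last direction turned in 2 of 14 alternatives, to log2 ratios of -2.13 and -1.96. Cluster 16, which scored highest for dendritic or Langerhans cell markers and next for macrophage markers, had the highest Il18 level of any cluster with at least 50 cells in a library, 531 CPM (469 to 598) in Ctrl-D against 479 (392 to 580) in Eed iKO-D.

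Keratinocyte Il18 followed the cornifying state. Cluster 11, led by Lor, had 136 CPM (129 to 144) in Ctrl-D against 216 (178 to 260) in the 17 cells of Eed iKO-D, and held 27.6% of the Il18 UMIs of Ctrl-D. Of the shared clusters, 0, 1, 2 and 18 had ratios from 0.297 (0.258 to 0.341) in cluster 1 to 0.673 (0.465 to 1.001) in cluster 18. Cluster 20 had 7.64 and 11.4 CPM, a ratio of 1.498 (0.993 to 2.38) from 23 and 971 UMIs.

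**Figure D5:**
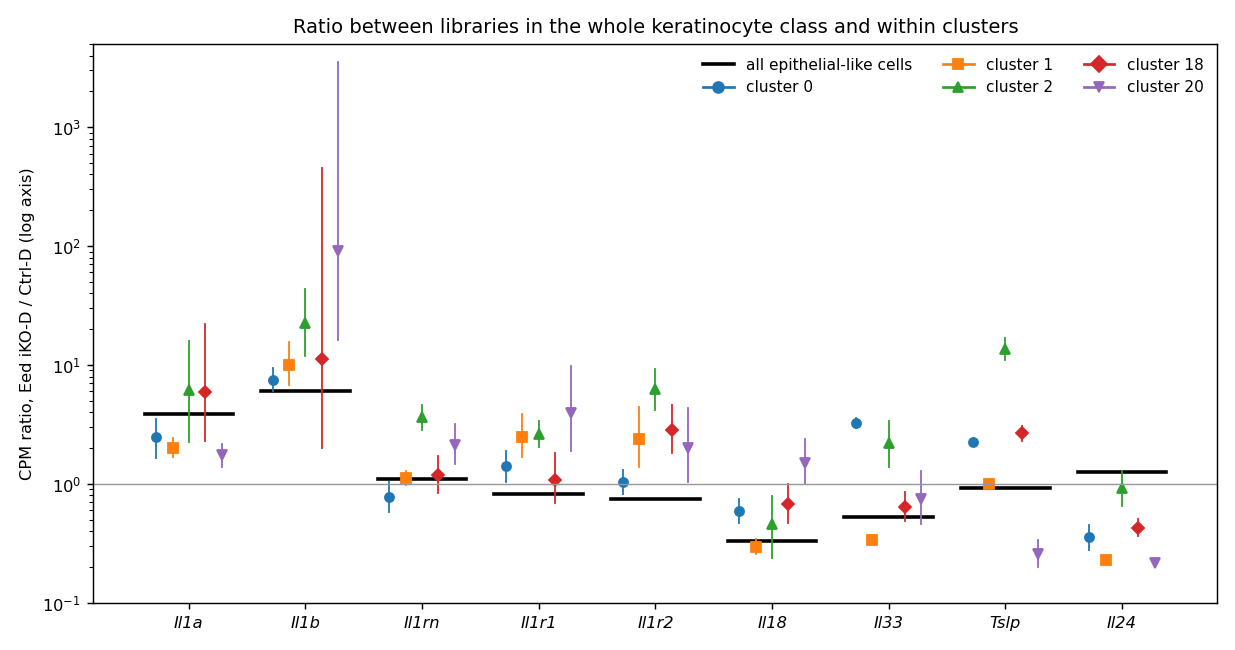
CPM ratio between libraries (log axis; above 1 is higher in Eed iKO-D) over all epithelial-like cells (black bars) and within the 5 shared clusters (coloured marks, with exact 95% intervals). Il1a and Il1b lay above 1 in all 5, while the black bar for Il24, at 1.27, lay above each of its 5 marks.

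Il33, a nuclear alarmin, had its highest level in fibroblast-like cells and next in keratinocytes. Fibroblast-like cells stood at 192 CPM (174.5 to 211) and 250 (246 to 254), a ratio of 1.30 (1.18 to 1.44). Its fibroblast clusters went opposite ways: cluster 5 had 221 (199 to 244) and 439 (432 to 446) CPM, a ratio of 1.99 (1.80 to 2.21), and cluster 7 had 108 (82.9 to 138) and 58.0 (55.5 to 60.7), a ratio of 0.538 (0.419 to 0.703). In epithelial-like cells Il33 was lower in Eed iKO-D, with 47.2 (45.8 to 48.5) and 24.9 (24.1 to 25.8) CPM, a ratio of 0.529 (0.505 to 0.553). Here too the clusters were split. Cluster 1, led by Sprr2 genes, had 209.9 (201 to 219) and 70.9 (67.8 to 74.2) CPM, a ratio of 0.338, and cluster 0 had 48.2 (46.2 to 50.3) and 157 (143 to 171), a ratio of 3.25 (2.94 to 3.59). Cluster 2 had a ratio of 2.21 (1.38 to 3.42), cluster 18 of 0.643 (0.492 to 0.852) and cluster 20 of 0.743 (0.458 to 1.29). In neutrophil-, macrophage- and T cell-like cells Il33 lay at or under the free RNA level in both libraries.

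Tslp was a keratinocyte gene of a few clusters. Over the class it stood at 80.4 CPM (78.7 to 82.2) and 73.8 (72.4 to 75.3), a ratio of 0.918 (0.891 to 0.946). In Ctrl-D cluster 0 held 79.9% of all Tslp UMIs, at 141 CPM (137 to 144). In Eed iKO-D cluster 18 held 45.2%, at 398 CPM (387 to 409), and cluster 1 held 24.8%, at 104. The near-level class value thus combined clusters of different direction: cluster 2 had 7.60 and 104 CPM, a ratio of 13.7 (11.1 to 16.9), clusters 0 and 18 had ratios of 2.25 (2.10 to 2.40) and 2.66 (2.30 to 3.09), cluster 1 of 1.01 (0.937 to 1.09) and cluster 20 of 0.258 (0.200 to 0.337). The 9 genes were held out when clusters were built, yet Tslp led cluster 18, where 12.7% of 118 and 17.99% of 378 cells had a UMI after thinning. The 148 Ctrl-D cells of that cluster were shallow, with a median of 4159.5 UMIs against 31417. Of the other named classes the highest Tslp level was 42.7 CPM (20.5 to 78.5) in the 36 pericyte- or smooth muscle-like cells of Ctrl-D.

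Il24 marked cluster 20, the cluster with Prl8a9 and Hmga2 among its leading genes. It stood at 529.6 CPM (504 to 556) in the 112 Ctrl-D cells and 115 (113 to 118) in the 1727 Eed iKO-D cells, a ratio of 0.218 (0.207 to 0.230). After thinning, 28.3% of 106 and 10.1% of 1719 of these cells had an Il24 UMI, against 0.410% of 244 and 0.454% of 2423 fibroblast-like cells. Over the whole class the direction was the other way, with 71.8 (70.2 to 73.5) and 91.3 (89.6 to 92.9) CPM, a ratio of 1.27 (1.23 to 1.31). Cluster 20 made up 1.52% of kept Ctrl-D cells and 8.04% of kept Eed iKO-D cells, and held 22.1% and 64.0% of all Il24 UMIs. No shared cluster had a ratio above 1: clusters 0, 1 and 18 had 0.360, 0.229 and 0.429, and cluster 2 had 0.930 (0.649 to 1.30). Cluster 4 of Ctrl-D was nearly without Il24, at 2.92 CPM against a free RNA level of 3.37. In neutrophil-like, macrophage- or monocyte-like and T cell-like cells Il24 lay at or under the free RNA level in both libraries. The 66 mast cell-like cells of Eed iKO-D had 112 CPM (84.9 to 145), in a class whose free RNA share was 84.7%.

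Counted over the class, 2 of the 9 genes (Il1a and Il1b) were at least 1.5 times higher in epithelial-like cells of Eed iKO-D and 2 (Il18 and Il33) at least 1.5 times lower. Of 19451 genes measured there, 37.4% were that much higher and 17.6% lower (median log2 ratio 0.31), so the share of the 9 that was higher lay under the background. Their own median was -0.12. Relative to the median of all genes, Il1r1 and Il1r2 joined the lower side, which made 4 of 9. The share of all genes on the lower side after the same centring is not given, so the 4 cannot be set beside 17.6%. Within shared clusters the counts differed. Cluster 2 had 7 higher and 1 lower (background 30.8% and 17.8%), cluster 20 had 5 and 2 (39.6% and 15.2%), cluster 0 had 4 and 2 (32.7% and 13.9%), cluster 1 had 4 and 3 (49.0% and 11.3%) and cluster 18 had 4 and 3 (13.8% and 16.4%).

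In neutrophil-like cells 3 of 9 genes were lower (Il1rn, Il1r2 and Il18) and 3 higher (Il1r1, Tslp and Il24), against 26.6% lower and 34.9% higher of 10973 genes. The 3 higher ones all lay at or under the free RNA level. In macrophage- or monocyte-like cells 4 of 9 were higher (Il1a, Il1r1, Il18 and Il24) and 2 lower (Il1r2, and Il33 from 4 UMIs in Ctrl-D), against 33.7% and 25.0% of 12862 genes, and Il24 and Il33 there were at the free RNA level. In fibroblast-like cells Il1a, Il1b and Il1rn were higher and Il1r2 and Il18 lower, 3 and 2 of 9, against 28.5% and 22.5% of 17192 genes. In T cell-like cells 5 of the 9 had at least 20 UMIs, of which Il1r1 and Il33 were higher and Il1b and Il1rn lower, against 18.1% and 21.5% of 9481 genes. Il1r1 in Eed iKO-D, at 40.1 CPM (29.4 to 53.5), could not be told from its free RNA level of 30.5, and Il33 did not stand above its own in either library. Il1b and Il1rn stood above the free RNA level in Ctrl-D and below it in Eed iKO-D. The share of the 9 in each class was read beside a background of that size, which was itself large. What made it large was not tested.

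The rest of the pathway was described from 6 lists, as counts at least 1.5 times apart. Of the other IL-1 family members in epithelial-like cells 4 of 6 measured were lower in Eed iKO-D and 1 higher, against 17.6% and 37.4% of all genes (median log2 ratio -1.62, against 0.31 over all genes). The 4 were Il1f5 (the IL-36 receptor antagonist, 11.5 and 2.26 CPM), Il1f6 (2.96 and 0.362), Il1f10 (0.191 and 0.0385, from 19 and 5 UMIs) and Il18bp (the IL-18 binding protein, 1.61 and 0.786). Il1f8 lay between the thresholds, and Il1f9, which encodes the agonist IL-36γ, was higher, at 26.3 and 49.2 CPM. Of the inflammasome and processing genes, 5 of 16 were lower and 2 higher, with a list median of -0.28 on the log2 scale against 0.31. Pycard, the adaptor ASC, stood at 271 and 97.2 CPM (ratio 0.359) and the pore former Gsdmc at 68.1 and 15.8. Adaptors and kinases had 6 of 13 higher and 1 lower, a share near the 37.4% of all genes that were higher, with Map3k7 at 33.0 and 51.5 CPM and Chuk at 18.7 and 36.0. NF-kB response genes had 4 of 24 higher and 6 lower, with a median of 0.15 against 0.31, and with Nfkbia at 951 and 932 CPM and the prostaglandin synthase Ptgs2 at 133.5 and 528 (ratio 3.95).

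In neutrophil-like cells 15 of 22 measured NF-kB response genes were lower and 5 higher in Eed iKO-D (median log2 ratio -0.78, against 0.12 over all genes). Of the 5 higher, Cxcl5 (20.6 CPM) and Il6 (13.6 CPM) lay under their Eed iKO-D free RNA levels of 47.6 and 30.3. Nfkbia, the NF-kB inhibitor, stood at 7002 and 3240 CPM, Cxcl2 at 18700 and 14280 and Nfkbiz at 1898 and 1229. Inflammasome and processing genes there were lower in 8 of 16 and higher in 5, against 26.6% and 34.9% of all genes. Nlrp3 stood at 2332 and 1318 CPM and Casp4 at 631 and 303. The 5 higher were Aim2, Capn2, which lay under its free RNA level in Eed iKO-D, and the proteases Elane, Prtn3 and Ctsg, each with 0 UMIs in Ctrl-D. The free RNA share of the neutrophil-like class was 37.9% in Eed iKO-D, against 15.0% in Ctrl-D. For macrophage- or monocyte-like cells it was 13.2%, against 19.4%. With each cell classed by its own markers, neutrophil-like log2 ratios turned to 0.20 for Il1rn and 0.80 for Il1r2. The part of free RNA and of the classing in these list counts was not tested. In macrophage- or monocyte-like cells the same lists stood the other way. NF-kB response genes were higher in 12 of 23 and lower in 2, with a median of 0.63 against 0.11. Cxcl2 had 3627 and 5975 CPM and Cxcl1 624 and 1335. Inflammasome and processing genes were higher in 8 of 14 and lower in 2, against 33.7% and 25.0% of all genes, with Nlrp3 at 300.2 and 718 CPM. The 8 included the processing genes Capn2 and Prtn3. The type 2 list was lower in 4 of 7 and higher in 2. Of its 4 highest genes by level, the chemokines Ccl24 (799 and 124 CPM) and Ccl22 (456 and 12.5) were lower. The other 2, Socs3 (253 and 537.5 CPM) and Il10 (138 and 295), were higher. Ccl22 is also in the marker list for dendritic or Langerhans cells, and the Ctrl-D class held 74 cells. The part of such cells in these levels was not tested.

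Fibroblast-like cells differed in the partner chains of these receptors. The class joined cluster 5 (213 and 1338 cells) and cluster 7 (39 and 1092 cells), and the part of this mix in the values below was not tested. Of 9 measured receptor chains 6 were higher and 1 lower in Eed iKO-D, against 28.5% and 22.5% of all genes (median log2 ratio 1.39, against 0.06 over all genes). Il1rl1, the IL-33 receptor ST2, stood at 18.8 CPM (13.6 to 25.3) and 168 (165 to 171), a ratio of 8.94 (6.63 to 12.4). Il18r1, the IL-18 receptor chain, had 3 UMIs in Ctrl-D (1.31 CPM) and 43.5 CPM (42.0 to 45.2), a ratio of 33.3 (11.4 to 161). Il1rap, the chain that both IL-1 and IL-33 receptors need, stood at 53.7 (44.6 to 64.0) and 93.25 (90.9 to 95.6). The chain that was lower was Il7r, at 3.93 CPM from 9 UMIs and 0.595. Crlf2, the TSLP receptor chain, stood at 31.4 and 21.6 CPM, a ratio of 0.686 that did not reach 1.5 times. Of the NF-kB response genes 11 of 24 were higher and 2 lower, against 28.5% and 22.5% of all genes, with a list median of 0.48 on the log2 scale against 0.06. Saa3 stood at 831 and 1495 CPM and Cxcl1 at 1834 and 1633.

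The receptor chains for the other ligands were spread over several classes. T cell-like cells carried Il18r1 at 318 CPM (293 to 345) and 405 (369 to 444), Il1rl1 at 222 and 267, and Il7r, which pairs with Crlf2 for TSLP, at 814 and 592.5. Neutrophil-like cells carried Il1rap at 1449 (1286 to 1627) and 619.7 (600.4 to 639.5) CPM. Crlf2 stood at 116 and 72.1 CPM in neutrophil-like and 87.7 and 89.9 in macrophage- or monocyte-like cells. In epithelial-like cells Il20rb, a receptor chain for IL-24, stood at 25.8 and 14.4 CPM. Of the chains that can pair with it, Il20ra stood at 7.72 and 3.70 CPM, and Il22ra1 was near 0, at 0.581 and 0.739. In T cell-like cells the type 2 list was lower in 5 of 7 and higher in 0, against 21.5% and 18.1% of all genes. Its median log2 ratio was -0.78, against -0.02 over all genes. Areg stood at 869 and 449 CPM, and Il13 at 74.5 and 12.2, from 140 and 14 UMIs. Gata3 and Socs3, the others of the 4 highest by level, were nearly level, at 229 and 250.5 and at 50.5 and 52.4 CPM. The Eed iKO-D class held 153 cells.

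Across the 34 cluster-by-library profiles of at least 50 cells, the genes most like each of the 9 were found by Pearson's r of log2(CPM + 5). The profiles share libraries and depth, and r is a description. Il1b was most like Plek (0.98), Nlrp3 (0.97) and Fcer1g (0.96), and Il1r2 like Sp140 (0.92). Il1a was most like Cxcl3 (0.85) and Il1rn (0.84), so the stored agonist and the antagonist followed each other across clusters more closely than Il1a followed Il1b (0.66). Il1r1 was most like Cp (0.90) and Arhgap6 (0.90), Il33 like Vegfd (0.79), Tslp like Cdhr1 (0.89), Il24 like Kcnk1 (0.88), Il1rn like Klra2 (0.89) and Il18 like Arrdc4 (0.78). Of the 3 most alike genes, 2 were also found in Ctrl-D profiles alone for Il1a, Il18 and Il33, and in Eed iKO-D profiles alone for Il1b. In Eed iKO-D profiles alone 0 of the 3 were found for Il1a, Il1r1, Il18 and Il24. In Ctrl-D profiles alone 0 were found for Il1rn, Il1r1 and Tslp. The other counts were 1. Il1rn was among the 3 genes most like Il1a in Ctrl-D profiles but not in Eed iKO-D profiles.

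By position (GRCm38), the 9 genes lay on 5 chromosomes. Il1a (129299610 to 129309972, minus strand) and Il1b (129364570 to 129371139, minus strand) are neighbours on chromosome 2, which also holds Il1rn (24336853 to 24351494, plus strand). Il1r2 (40074079 to 40125231) and Il1r1 (40225080 to 40317257) are neighbours on the plus strand of chromosome 1, where Il24 lies at 130882074 to 130887454 on the minus strand. Il18 lies on chromosome 9 (50554827 to 50581840) and Il33 on chromosome 19 (29925114 to 29960718), both on the plus strand, and Tslp lies on chromosome 18. Il1a, Il1b, Il18, Il1r2 and Tslp overlap genes on the opposite strand, and Il1r1 and Il1r2 overlap unnamed gene models on their own strand. Reads from the latter could be counted with either gene, so those levels are uncertain to that extent.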

How the data were processed

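Single cells of 2 tumour samples, 1 library per group, were counted by the authors with Cell Ranger, and the deposited values are raw UMI counts per gene and cell barcode, per the file headers. Genome mm10 is named in the submitters' processing notes. Sources differ on the Cell Ranger version (2.1.0 in the labels' protocol, 7.1.0 per the file headers, 8.0 in the processing notes).

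Cells were filtered and clustered with scanpy 1.11.5 (Leiden from igraph 0.11.9) without the 9 genes and pathway lists. Scrublet removed 132 cells of Ctrl-D and called 0 in Eed iKO-D, a failed call that leaves doublets in that library. Clusters were named from marker lists by a rule set after the data were seen. Counts were summed per class and library and divided by the class total (CPM). Intervals are exact Poisson, exact conditional binomial for ratios and Clopper-Pearson for shares (scipy 1.17.1). UMIs are molecules, and intervals cover counting error only. Shares of cells were compared after thinning to 1500 UMIs. A gene counted as measured with at least 20 UMIs over both libraries. With 1 library per group no test was run.

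The members and lists were chosen with earlier results of these data known. Named genes were all 9 members, in each class genes among the 4 highest by level of each pathway list, genes that make up a stated count, the receptor partners, and the most alike genes by profile.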

Additional observations from a re-analysis of the deposited data

Results flagged for a closer look

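In 3 of the 9 genes the libraries differed by at least 1.5 times in opposite directions in 2 cell classes, with counting intervals of both ratios that left out 1. Il33 also had opposite directions, but its ratio in T cell-like cells, 1.80 (0.696 to 4.74), had an interval that held 1. None of these was tested, since each class has 1 sample per library. Il1b had a log2 ratio (Eed iKO-D over Ctrl-D, fitted with 0.5 UMI added) of 8.595 in fibroblast-like and -1.32 in T cell-like cells, 9.91 apart. Il1rn had 5.46 in fibroblast-like and -1.19 in neutrophil-like cells, 6.64 apart. In both cases the Ctrl-D fibroblast-like class held 0 UMIs, so the fitted fold is no bound. Il18 had 0.62 in macrophage- or monocyte-like and -2.17 in neutrophil-like cells, 2.79 apart. Il1b in T cell-like cells of Eed iKO-D, at 37.5 CPM, lay below its free RNA level of 114. The direction turned in 3 of 14 alternatives for Il1b in T cell-like cells and in 1 of 13 for Il1rn in neutrophil-like cells. It turned in 2 of 14 for Il18 in macrophage- or monocyte-like cells.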

How the results depend on the processing

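Of 636 alternative values of 41 member ratios, 23 had the opposite direction from a called main value. Il1a and Il1b in epithelial-like cells and Il1r2 and Il18 in fibroblast-like cells kept their side of 1.5 times in all 22 and all 14 alternatives run. The causes of the differences below were not tested. Except for single clusters, the share of all genes past 1.5 times is not given for the alternative settings. The member counts below therefore show only how far the main counts moved. Within single epithelial clusters the log2 ratio turned for Il33 (1.70 in cluster 0, 1.17 in cluster 2) and Il18 (0.55 in cluster 20), and 4 (clusters 0, 1 and 18), 7 (cluster 2) or 5 (cluster 20, and the median of shared clusters) members were higher, with 1 lower in cluster 2. With each cell classed by its own markers, log2 ratios turned in neutrophil-like cells for Il1rn (0.20), Il1r2 (0.80), Tslp (-2.27) and Il24 (-5.27), in macrophage- or monocyte-like cells for Il1r2 (2.44) and Il33 (0.32), and in T cell-like cells for Il1b (1.19) and Il1rn (0.20). Members higher were then 7 in macrophage- or monocyte-like (0 lower), 6 in fibroblast-like and 5 in T cell-like cells. With free RNA subtracted, ratios turned for Il1r1, Tslp and Il24 in neutrophil-like cells (-4.98 each), Il24 in macrophage- or monocyte-like (-4.75) and Il1r1 in T cell-like cells (-0.74). Members lower were then 4 in epithelial-like, 4 in macrophage- or monocyte-like, 4 in fibroblast-like and 7 in neutrophil-like cells (0 higher), and 1 was higher in T cell-like cells. Other clusterings turned Il18 in macrophage- or monocyte-like cells (-2.13 at Leiden resolution 0.5, -1.96 with at most 10% mitochondrial UMIs), Il33 there (0.58, 0.077, and 0.48 with the top 8% of doublet scores removed) and Il1b in T cell-like cells (0.43 with those scores removed). The mean of per-cell CPM turned Il1b in T cell-like cells (0.41) and gave 1 lower in epithelial-like, 2 higher and 1 lower in macrophage- or monocyte-like, 5 higher in fibroblast-like and 0 lower in T cell-like cells. Adding 5 CPM gave 1 lower in macrophage- or monocyte-like and 1 higher in T cell-like cells. In T cell-like cells, 1 was higher with no doublet removal, 5 with no minimum of UMIs, 0 were lower with the top scores removed and 1 at resolution 0.5. With those scores removed 5 were higher in fibroblast-like cells. Centring on all genes gave 4 lower in epithelial-like cells. Leaving out barcodes in both libraries, added after seeing the data, gave 1 lower in macrophage- or monocyte-like cells. A higher minimum of genes per cell left too few neutrophil-like cells for a value. No paired analysis was possible because each group has 1 library. Depth limits the Ctrl-D neutrophil-like and macrophage- or monocyte-like classes (138 and 74 cells).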

Other observations

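In the small cornifying cluster 11 of Eed iKO-D (17 cells) the alarmins stood high beside the 469 cells of Ctrl-D: Tslp at 159 (126 to 197) against 6.33 CPM (4.803 to 8.18), and Il33 at 147 (116 to 184) against 34.0 (30.4 to 38.0). Il1a there rested on 1 UMI in Eed iKO-D. Cluster 9 of Eed iKO-D, which had no Ctrl-D cells, had 62.7 CPM of Il33 (57.8 to 67.9), 20.99 of Il18 (18.2 to 24.1), 7.51 of Tslp and 5.56 of Il24.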
